A study of Mus musculus with 10 samples.

Results

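The transcripts of 8 genes that have been proposed to mark slowly cycling, or reserve, stem cells of the intestine were followed through 10 libraries of sorted mouse intestinal cells. The genes are Hopx, Bmi1, Tert, Lrig1, Mex3a, Krt15, Krt19 and Prox1. They were chosen by name, as 8 of the 30295 gene rows of the series, and all 8 were among the 15839 genes with enough counts to test. The study asked how calorie restriction acts on the stem cells of the intestinal epithelium. It holds 4 groups of C57Bl/6 mice, with 1 library per animal. Hopx CR (n = 2) are tdTomato-labelled cells from calorie restricted mice that carry Hopx-CreER and a loxP-stop-loxP tdTomato reporter, and Hopx AL (n = 2) are the same cells from mice fed ad libitum. Lgr5 CR (n = 3) are EGFP-labelled cells from calorie restricted mice with the Lgr5-EGFP-IRES-CreER allele, and Lgr5 AL (n = 3) are their ad libitum fed equivalents. The animals were handled in 5 isolations, each with 1 CR and 1 AL animal of the same reporter line. Isolation is therefore nested in line, and a difference between the lines cannot be told apart from one between isolations.

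Crypts of the small intestine hold rapidly dividing Lgr5-positive cells at their base, and a second, slowly cycling population has been described that can rebuild the crypt after injury. The genes used to name this second population differ in what they encode. Hopx is an atypical homeodomain protein that does not bind DNA by itself, Bmi1 is a subunit of polycomb repressive complex 1, Tert is the catalytic subunit of telomerase, Lrig1 is a membrane protein that restrains ErbB receptors, Mex3a is an RNA-binding protein, Krt15 and Krt19 are type I keratins, and Prox1 is a homeobox transcription factor also known from secretory cells. The tdTomato label is made by a Cre-driven recombination and is passed on to daughter cells, so the Hopx sort reads a past as well as a present activity of the Hopx locus. The interval between induction and sorting is not given in the sources used here.

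Promoter sequences of the pair of genes with the smallest p-values between the sorts, Hopx and Lrig1, are shown because the sort itself rests on the Hopx locus. They are RefSeq sequences on build GRCm38.p6 that run from 250 bases before to 50 bases after an annotated start, printed in the gene's own direction. Capitals mark the motifs found. Hopx had 2 annotated starts and Lrig1 had 1, all on the minus strand.
Hopx, chr5:77115074-77115373: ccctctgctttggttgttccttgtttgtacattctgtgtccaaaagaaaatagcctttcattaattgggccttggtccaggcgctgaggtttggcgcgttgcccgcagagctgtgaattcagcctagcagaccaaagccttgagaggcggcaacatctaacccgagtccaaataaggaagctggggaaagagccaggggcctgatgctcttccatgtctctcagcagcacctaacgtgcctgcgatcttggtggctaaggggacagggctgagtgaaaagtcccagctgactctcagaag
Hopx, chr5:77095218-77095517: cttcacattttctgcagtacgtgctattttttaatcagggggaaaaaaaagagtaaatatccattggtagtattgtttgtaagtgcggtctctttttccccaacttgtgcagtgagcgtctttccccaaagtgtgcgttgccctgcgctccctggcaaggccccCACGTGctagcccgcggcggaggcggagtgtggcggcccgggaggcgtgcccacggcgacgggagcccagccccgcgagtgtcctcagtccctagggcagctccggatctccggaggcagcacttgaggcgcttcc
Lrig1, chr6:94700096-94700395: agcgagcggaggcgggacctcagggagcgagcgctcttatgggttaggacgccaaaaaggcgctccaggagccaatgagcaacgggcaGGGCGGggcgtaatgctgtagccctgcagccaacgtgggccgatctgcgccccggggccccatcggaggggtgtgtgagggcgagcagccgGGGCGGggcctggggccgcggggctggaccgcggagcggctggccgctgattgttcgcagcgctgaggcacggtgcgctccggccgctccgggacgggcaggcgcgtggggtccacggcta

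The motifs searched, on both strands, were the TCF/LEF cores CTTTGA and CTTTGT, the GC box GGGCGG, the TATA box TATAAA and the E-box CACGTG. Among 32851 promoters of the same length these were present in 16.0%, 18.7%, 35.7%, 13.6% and 7.15%. The first Hopx start held none of them in this window, and the other held 1 E-box that began 86 bases before the start. The Lrig1 window held 2 GC boxes, which began 162 and 71 bases before the start, and no motif overlapped another in these 3 windows. The Hopx windows held 8 and 21 CpG dinucleotides at 53.0% and 59.0% GC, and the Lrig1 window held 35 at 73.0% GC, against medians of 7 CpG and 52.7% GC over all promoters. Of the 8 genes, 6 were matched to a promoter, and a GC box was found for Bmi1, Lrig1, Mex3a, Prox1 and Tert. The deposited values are sums over the transcripts of a gene, so they do not separate the starts of Hopx.

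The shallowest library, Lgr5 AL replicate 3, held 20.3 M estimated counts and the deepest, Hopx CR replicate 1, held 87.2 M. No pair among the 10 libraries held identical values. Epithelial markers such as Krt8 and Cldn7 were abundant in every library. The Y-linked gene Eif2s3y stood at 0.254 CPM, the counts scaled to a fixed library total, in Hopx CR replicate 1, 0.116 in Lgr5 CR replicate 3 and 0.0406 in Lgr5 AL replicate 3, against 14.2 to 49.8 CPM in the other libraries. The 2 animals of isolation 4 therefore differed in it. Hopx AL replicate 1 stood apart in Lyz1, the lysozyme of Paneth cells, at 109240 CPM. Mki67, a marker of dividing cells, was at 5.92 CPM in Hopx AL replicate 1 and in Lgr5 AL replicate 1 and at 17.2 to 94.7 CPM elsewhere. The summed CPM of 18 proliferation genes did not set these libraries apart in the same way. It was 1457 in Hopx AL replicate 1 and 1574 in Lgr5 AL replicate 1. Elsewhere it ran from 1379 in Lgr5 CR replicate 1 to 2422 in Lgr5 AL replicate 2. Sums and levels are of RNA from pools of sorted cells, in which fewer cells of a type and less RNA per cell cannot be told apart.

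Per unit of transcript length, the 8 genes covered more than 3 orders of magnitude. Krt19 was the highest at a mean of 1589 TPM (1117 to 2148 TPM over the 10 libraries), and only 0.347% of the tested genes had a higher mean. Hopx followed at 144 TPM (76.0 to 238), Lrig1 at 39.8 TPM (12.1 to 75.3) and Bmi1 at 15.0 TPM (10.00 to 29.8). Krt15 had a mean of 3.20 TPM, Tert 1.41 TPM, Prox1 0.896 TPM and Mex3a 0.425 TPM. This order held in all 10 libraries for 5 of the 7 neighbouring pairs. Krt15 exceeded Tert in 7 of 10 libraries and Tert exceeded Prox1 in 8 of 10, so these neighbours were not separated beyond the spread of the libraries. The lowest counts were those of Krt15 (38 to 506 estimated counts per library), Mex3a (53 to 203) and Tert (71 to 338). These 3 genes also had the largest standard errors of the 8 between the sorts (0.487, 0.347 and 0.345 on the log2 scale). The SD of log2 CPM over the libraries was nevertheless 0.328 for both Mex3a and the abundant Krt19. The part of low counts in the precision was not tested.

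**Figure D1:**
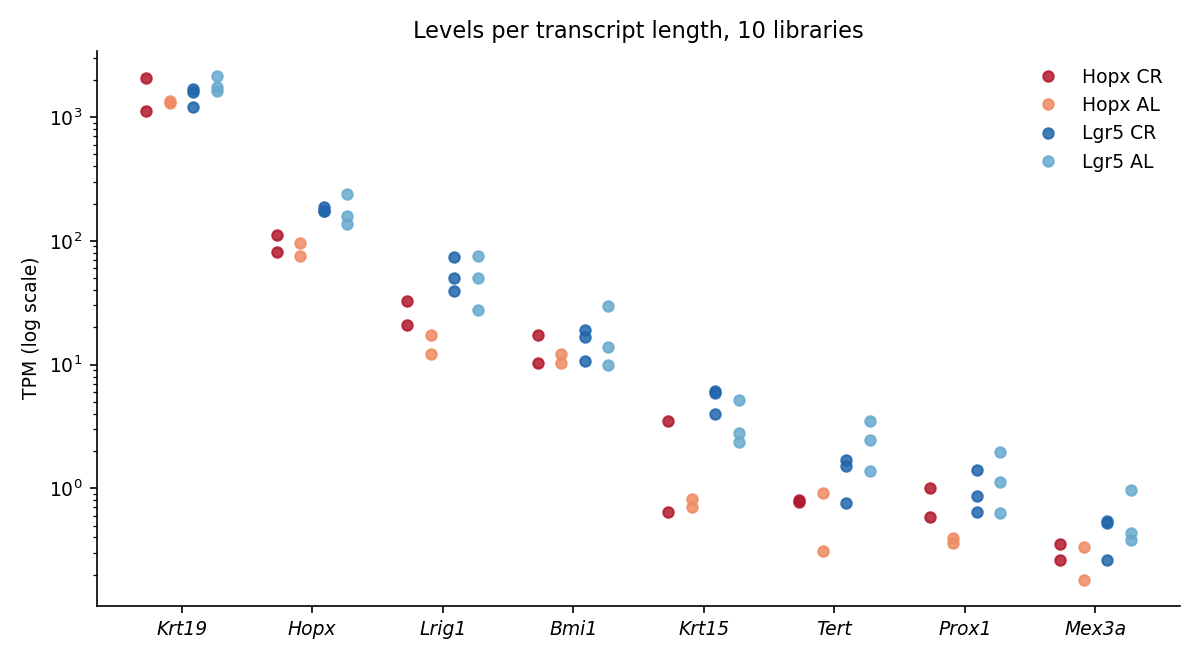
TPM on a log scale for the 8 genes, ordered by mean, with 1 point per library coloured by group. Krt19 (1117 to 2148 TPM) and Mex3a (0.180 to 0.976 TPM) stand at the ends of the range, and the Hopx points of Hopx cells lie below those of Lgr5 cells.

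The first comparison asked whether the reserve marker transcripts were enriched in the Hopx-sorted cells over the Lgr5-sorted cells. No such enrichment was called. Of the 8 genes, 0 passed edgeR's quasi-likelihood test, where 1.33% of all tested genes passed (211 of 15839), and 6 of the 8 had a lower level in Hopx cells. The median log2 fold change of the 8 was -0.40, against 0.005 over all genes. The smallest p-values belonged to Lrig1, Hopx, Krt15 and Tert, each with a lower estimate in Hopx cells. These 4 had an unadjusted p under 0.05, as did 19.5% of all genes. The same 4 passed limma's test on log2(TPM + 1) and on log2(TPM + 0.1), where 21.2% and 23.1% of all genes passed, nearly all of them lower in Hopx cells. A p that misses the threshold does not show that the levels were alike, and the intervals below give the sizes that remain possible.

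**Figure D2:**
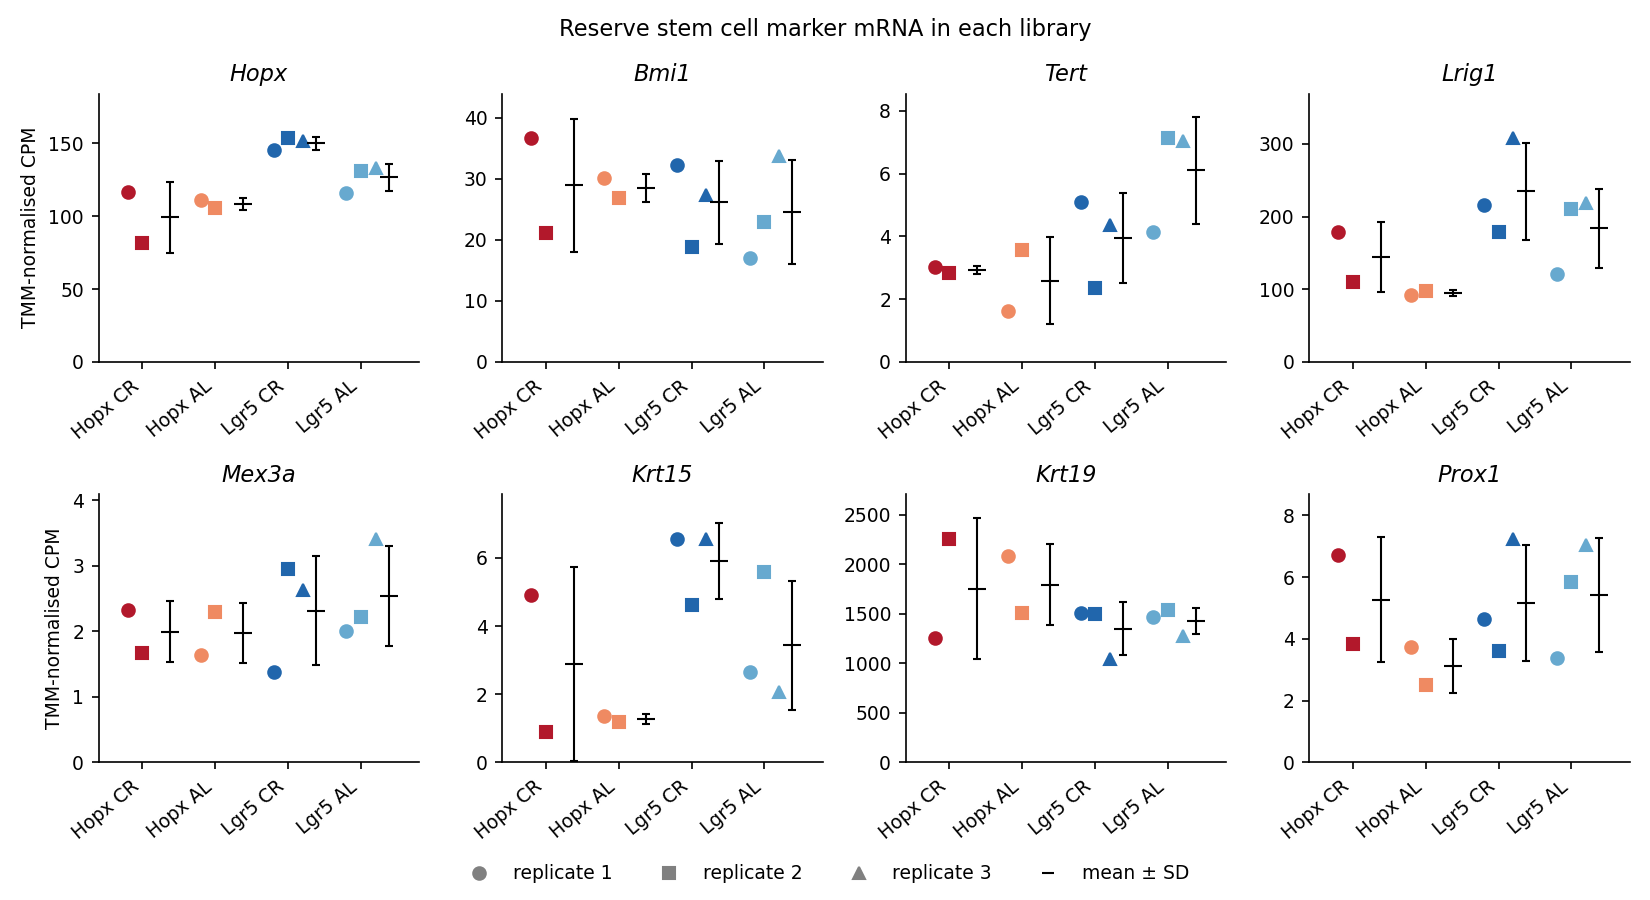
TMM-normalised CPM of each gene in each library, on linear axes from 0, with a point for each animal and the mean ± SD beside it (n = 2, 2, 3 and 3). The Hopx gene lies at 81.9 to 116 CPM in Hopx cells, below or level with the 116 to 154 CPM of Lgr5 cells, and Krt15 in Hopx CR replicate 1 lies apart from the other 3 Hopx-cell libraries.

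Hopx, the gene whose locus drives the label, was at 116 and 81.9 CPM in Hopx CR and at 111 and 105 CPM in Hopx AL. It was at 145, 154 and 152 CPM in Lgr5 CR and at 116, 131 and 133 CPM in Lgr5 AL. The highest Hopx-cell library and the lowest Lgr5-cell library met at 116 CPM, and all other Hopx-cell libraries were lower than all Lgr5-cell libraries. The fitted log2 fold change was -0.41 (SE 0.126, edgeR adjusted p = 0.119), that is 1.33-fold higher in Lgr5 cells, and its 95% interval of -0.69 to -0.13 lay below 0. The mean in Hopx cells was 0.660 of that in Lgr5 cells under CR and 0.854 of it under AL. In CPM the libraries of the 2 sorts overlapped for all 8 genes, where they did not for 4.8% of all genes. In TPM those of Hopx did not overlap (76.0 to 111 in Hopx cells, 138 to 238 in Lgr5 cells), which was so for 16.3% of all genes. On counts with DESeq2 the adjusted p was 0.0236, a call that 8.8% of all genes received. The sort by a Hopx-driven label was thus not accompanied by a higher level of Hopx mRNA in these libraries.

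Bmi1, the polycomb subunit, was at 36.7 and 21.2 CPM in Hopx CR and 30.2 and 26.9 CPM in Hopx AL. In Lgr5 CR it was at 32.3, 18.8 and 27.3 CPM, and in Lgr5 AL at 17.1, 23.0 and 33.7 CPM. The ranges lay almost on top of each other, and the log2 fold change was 0.18 (SE 0.242, edgeR adjusted p = 0.735, interval -0.36 to 0.72). On the TPM scale its sign was the opposite (-0.33), with the median of all genes at -0.35 on that scale.

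Tert, the reverse transcriptase of telomerase, was at 3.01 and 2.84 CPM in Hopx CR and 1.61 and 3.57 CPM in Hopx AL. Lgr5 CR libraries had 5.11, 2.36 and 4.37 CPM and Lgr5 AL libraries 4.14, 7.13 and 7.03 CPM. Only Lgr5 CR replicate 2 fell within the range of the Hopx cells. The log2 fold change was -0.84 (SE 0.345, edgeR adjusted p = 0.222), with an interval of -1.60 to -0.07. The ratio of the Hopx-cell mean to the Lgr5-cell mean was 0.425 under AL and 0.741 under CR.

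Lrig1, the ErbB inhibitor, was at 179 and 110.0 CPM in Hopx CR and at 91.9 and 98.2 CPM in Hopx AL. It was at 216, 179 and 308 CPM in Lgr5 CR and at 122, 211 and 219 CPM in Lgr5 AL. Hopx CR replicate 1 reached into the range of Lgr5 cells, and the other 3 Hopx-cell libraries were below all 6 of them. The log2 fold change was -0.83 (SE 0.230, edgeR adjusted p = 0.102, interval -1.34 to -0.31), 1.77-fold higher in Lgr5 cells. DESeq2 gave an adjusted p of 0.00931, and edgeR without Lgr5 AL replicate 1 gave -0.94 (adjusted p = 0.0494). Without Hopx CR replicate 1 the estimate was -1.02 (adjusted p = 0.118).

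Krt15, a keratin best known from basal cells of stratified epithelia, was at 4.91 and 0.878 CPM in Hopx CR and at 1.37 and 1.17 CPM in Hopx AL. The Lgr5 CR libraries had 6.56, 4.61 and 6.55 CPM and the Lgr5 AL libraries 2.64, 5.58 and 2.07 CPM. As with Lrig1, Hopx CR replicate 1 was the only Hopx-cell library inside the range of the Lgr5 cells. The log2 fold change was -1.23 (SE 0.487, edgeR adjusted p = 0.205, interval -2.31 to -0.14), and -2.09 without that library (adjusted p = 0.0876).

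Krt19, the abundant keratin, had 1251 and 2257 CPM in Hopx CR, 2082 and 1505 CPM in Hopx AL, 1513, 1497 and 1043 CPM in Lgr5 CR and 1469, 1534 and 1281 CPM in Lgr5 AL. Its log2 fold change was 0.35 (SE 0.207, edgeR adjusted p = 0.386), with -0.22 on the TPM scale. Prox1 and Mex3a overlapped throughout. Prox1 averaged 4.20 ± 1.78 CPM in Hopx cells and 5.29 ± 1.67 CPM in Lgr5 cells (SD, n = 4 and 6), a log2 fold change of -0.38 (SE 0.326, edgeR adjusted p = 0.563). Mex3a averaged 1.98 ± 0.377 CPM in Hopx cells and 2.43 ± 0.725 CPM in Lgr5 cells, a log2 fold change of -0.29 (SE 0.347, edgeR adjusted p = 0.695).

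**Figure D3:**
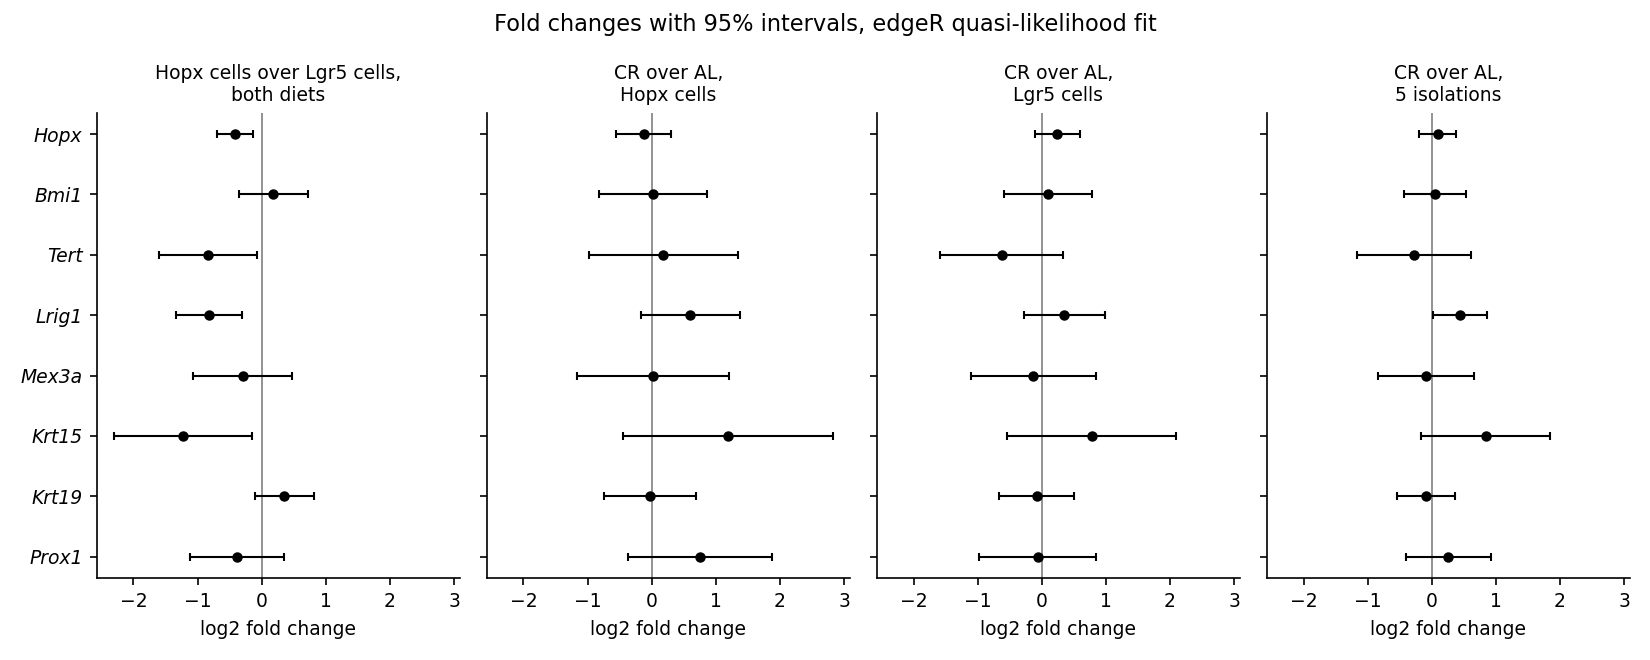
Fitted log2 fold changes (points) with 95% intervals (bars, not adjusted for the number of genes) for the 8 genes in 4 comparisons. Intervals for Hopx, Tert, Lrig1 and Krt15 lie below 0 between Hopx and Lgr5 cells, and the interval for Lrig1 over the 5 isolations is the only one of the diet panels that lies above 0.

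Genes that act with these markers or belong to their families gave no calls between the sorts. By edgeR 1.33% of all tested genes passed, and 0 calls in lists this short is near that share. Of 16 other tested genes of polycomb repressive complex 1, 0 passed, with a median log2 fold change of -0.24 (Phc2 -0.28, Scmh1 -0.41). Of 15 tested genes of telomerase assembly and the telomere-capping shelterin complex, 0 passed, with a median of -0.10. Of 5 tested LRIG and ErbB genes, 0 passed, and all 5 estimates were below 0. They include Erbb2 (-0.44, edgeR adjusted p = 0.0994) and Erbb3 (-0.58, edgeR adjusted p = 0.113), receptors that Lrig1 is known to restrain. The MEX3 family (0 of 3) and other keratins (0 of 7) had medians of 0.01, among them Krt8 at 0.01 and Krt20 at -0.45.

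Some markers of other states of the epithelium passed between the sorts. The number that passed changed when single libraries were left out, as given after the other lists. Of 15 markers of active crypt base stem cells, 5 fell in Hopx cells by edgeR (0.612% of all genes did) and all 15 estimates were negative, with a median of -0.92. Lgr5 mRNA, whose locus carries the EGFP label, ran from 69.3 to 158 CPM in Hopx cells and from 75.0 to 270 CPM in Lgr5 cells. Lgr5 AL replicate 1, at 75.0 CPM, lay within the range of the Hopx cells. The part of the sort by Lgr5 itself in these estimates was not tested. Tnfrsf19, a Wnt-regulated receptor, averaged 24.0 CPM in Hopx cells and 83.8 CPM in Lgr5 cells (log2 fold change -1.81, edgeR adjusted p = 0.0412). Ascl2, the transcription factor of active stem cells, averaged 50.9 CPM in Hopx cells and 127 CPM in Lgr5 cells (-1.32, edgeR adjusted p = 0.0485), and the Wnt feedback genes Rnf43 and Axin2 fell by 1.26 and 0.97 on the log2 scale. Among 9 cell cycle inhibitors, Cdkn1c, which encodes p57, was the only one to pass, at 25.9 CPM in Hopx cells and 9.81 CPM in Lgr5 cells (1.35, edgeR adjusted p = 0.0448). Of 18 proliferation genes 0 passed, with a median of -0.03.

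Enteroendocrine markers moved with the sort. Of 24 such genes, 11 rose in Hopx cells by edgeR (0.72% of all genes did), all 24 estimates were positive and the median was 1.81. Gip, the hormone of K cells, averaged 2033 CPM in Hopx cells and 150 CPM in Lgr5 cells (log2 fold change 3.69, edgeR adjusted p = 0.0149), and Isl1, an enteroendocrine transcription factor, averaged 24.8 CPM in Hopx cells and 3.09 CPM in Lgr5 cells (2.91, edgeR adjusted p = 0.0052). The summed CPM of the list ran from 3708 to 9588 in Hopx cells and from 879 to 4734 in Lgr5 cells. The goblet cell genes Spink4 and Tff3 and the lysozyme gene Lyz2, listed for Paneth and for immune cells, also rose, as 2 of 12, 1 of 14 and 1 of 18 tested genes of their lists. Tuft cell (0 of 19), enterocyte (0 of 20) and stromal genes (0 of 11) had no call in this comparison. All 19 tuft cell estimates were nonetheless above 0 (median 0.53), as were all 14 Paneth cell (0.85) and 11 of 12 goblet cell estimates (1.08). Below 0 were 15 of 20 enterocyte (median -0.34), 14 of 18 immune (-0.27) and 6 of 11 stromal estimates (-0.09). Summed Paneth cell transcripts ran from 69276 to 213080 CPM in Hopx cells and from 16787 to 71521 CPM in Lgr5 cells, and summed immune transcripts from 72.1 to 310 CPM in Hopx cells and from 60.6 to 291 CPM in Lgr5 cells. The part of these other cell types in the marker levels was not tested. These list counts were unsteady: leaving out 1 library at a time gave 0 to 8 active stem cell genes, 1 to 10 enteroendocrine genes and 0 or 1 cell cycle inhibitors.

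The next comparison asked whether calorie restriction altered the markers within the Hopx cells. None of the 8 passed (0.0126% of all genes did, 2 of 15839), and none had an unadjusted p under 0.05, as 8.52% of genes did. DESeq2 called 140 genes and 0 of the 8. The largest estimates were in Krt15 (log2 fold change 1.19, SE 0.737, edgeR adjusted p = 0.676), Prox1 (0.76, SE 0.503, edgeR adjusted p = 0.698) and Lrig1 (0.60, SE 0.349, edgeR adjusted p = 0.653). Each was raised by Hopx CR replicate 1, the library with the highest Krt15, Prox1 and Lrig1 levels of the 4. Hopx CR replicate 2 also lay above both Hopx AL libraries in Prox1 (3.84 CPM against 3.74 and 2.50 CPM) and in Lrig1 (110.0 CPM against 91.9 and 98.2 CPM). Without Hopx CR replicate 1 the estimates were -0.53, 0.30 and 0.21, so only that of Krt15 turned. The same library had the most Lgr5 mRNA among the Hopx cells, at 158 CPM against 69.3 CPM in Hopx CR replicate 2 and 70.0 and 87.2 CPM in Hopx AL. Its Y-linked transcripts were low next to those of its AL partner (Eif2s3y 0.254 CPM in Hopx CR replicate 1 and 41.2 CPM in Hopx AL replicate 1, Kdm5d 1.53 and 10.2 CPM in the same libraries), and the part of either in these estimates was not tested. Hopx itself differed by -0.13 (interval -0.55 to 0.30), Bmi1 by 0.02 (-0.82 to 0.86) and Tert by 0.18 (-0.99 to 1.34), so changes past about 2-fold in either direction lay outside the intervals of Hopx and Bmi1 but not of Tert. Of the 16 polycomb, 15 telomere, 5 LRIG and ErbB, 3 MEX3 and 7 keratin genes, 0 passed in this or any other diet comparison.

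In Lgr5 cells the markers gave 0 calls as well (0.0189% of all genes, 3 of 15839), with 0 at an unadjusted p under 0.05 (9.78% of genes) and 0 among the 365 genes called by DESeq2. Krt15 averaged 5.91 ± 1.12 CPM in Lgr5 CR and 3.43 ± 1.88 CPM in Lgr5 AL (SD, n = 3 each; log2 fold change 0.78, edgeR adjusted p = 0.710). Tert averaged 3.95 ± 1.43 CPM in Lgr5 CR and 6.10 ± 1.70 CPM in Lgr5 AL (-0.63, edgeR adjusted p = 0.676). Hopx averaged 150 ± 4.39 CPM in Lgr5 CR and 127 ± 9.19 CPM in Lgr5 AL. The 3 CR libraries, at 145 to 154 CPM, did not overlap the 3 AL libraries, at 116 to 133 CPM. The other 7 markers overlapped between the diets, and 14.9% of all genes did not overlap. The Hopx log2 fold change of 0.25 did not pass (SE 0.157, edgeR adjusted p = 0.647, interval -0.11 to 0.60). The difference between the diet effects in Hopx and Lgr5 cells passed for 0 of the 8 genes (0.00631% of all genes), with 0 at an unadjusted p under 0.05 (4.72% of genes). For Hopx it was -0.37 (SE 0.248, edgeR adjusted p = 1), the interval running from -0.92 to 0.18.

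Setting each CR animal against the AL animal of its own isolation, the markers again gave 0 calls (0.297% of all genes, 47 of 15839), and DESeq2 called 0 of the 8 among 1079 genes. Lrig1 came nearest, with a log2 fold change of 0.44 (SE 0.184, interval 0.02 to 0.87, unadjusted p = 0.0423, edgeR adjusted p = 0.291). It was the only one of the 8 with an unadjusted p under 0.05, where 16.2% of genes had one. Its CR animal was higher in 4 of 5 isolations, by 0.96 and 0.16 log2 units in the Hopx cells of isolations 4 and 5 and by 0.83, -0.23 and 0.49 in the Lgr5 cells of isolations 1, 2 and 3. Krt15 differed more, at 0.85 (SE 0.437, edgeR adjusted p = 0.386), but split into 3 isolations with a difference of 1.31 to 1.84 and 2 with -0.27 and -0.42. The same 3 isolations, 1, 3 and 4, were those with the 3 largest differences in Lrig1. Lgr5 mRNA differed by 1.66, 0.13 and 0.08 log2 units in isolations 1, 2 and 3 and by 1.18 and -0.33 in isolations 4 and 5. The largest differences in Lgr5 mRNA, in isolations 1 and 4, thus fell where those of Lrig1 were largest. The part of the Lgr5 mRNA difference in the Lrig1 estimate was not tested.

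Of the other genes, Hopx and Prox1 were higher in the CR animal of 4 of 5 isolations and Bmi1, Tert, Mex3a and Krt19 of 2 of 5. Hopx stayed within -0.36 to 0.32 log2 units, the narrowest span of the 8, while Tert ran from -1.60 to 0.90. Prox1 was higher by 0.84 and 0.62 in the Hopx cells of isolations 4 and 5, and differed by 0.45, -0.69 and 0.04 in the Lgr5 cells of isolations 1, 2 and 3. On the TPM scale the count for Hopx, Lrig1 and Prox1 was 3 of 5. None of the 8 moved one way in both Hopx isolations and the other way in all 3 Lgr5 isolations. Among the enterocyte genes all 20 estimates were higher under CR in this comparison, and Apob, the core protein of chylomicrons, was the 1 that rose (0.278% of all genes did; 1.88, edgeR adjusted p = 0.0339). The summed enterocyte CPM ran from 23384 to 26686 in Hopx CR and from 9282 to 14096 in Hopx AL. It ran from 24936 to 34959 in Lgr5 CR and from 6559.5 to 31731 in Lgr5 AL, where the groups overlapped. Other lists leaned one way over the isolations without a call. All 19 tuft cell estimates were below 0 (median -1.03), as were 18 of 24 enteroendocrine (-0.46) and 15 of 18 immune estimates (-0.63). Paneth cell (7 of 14 below 0) and goblet cell estimates (5 of 12) were mixed. The part of the transcripts of these cell types in the marker values was not tested.

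**Figure D4:**
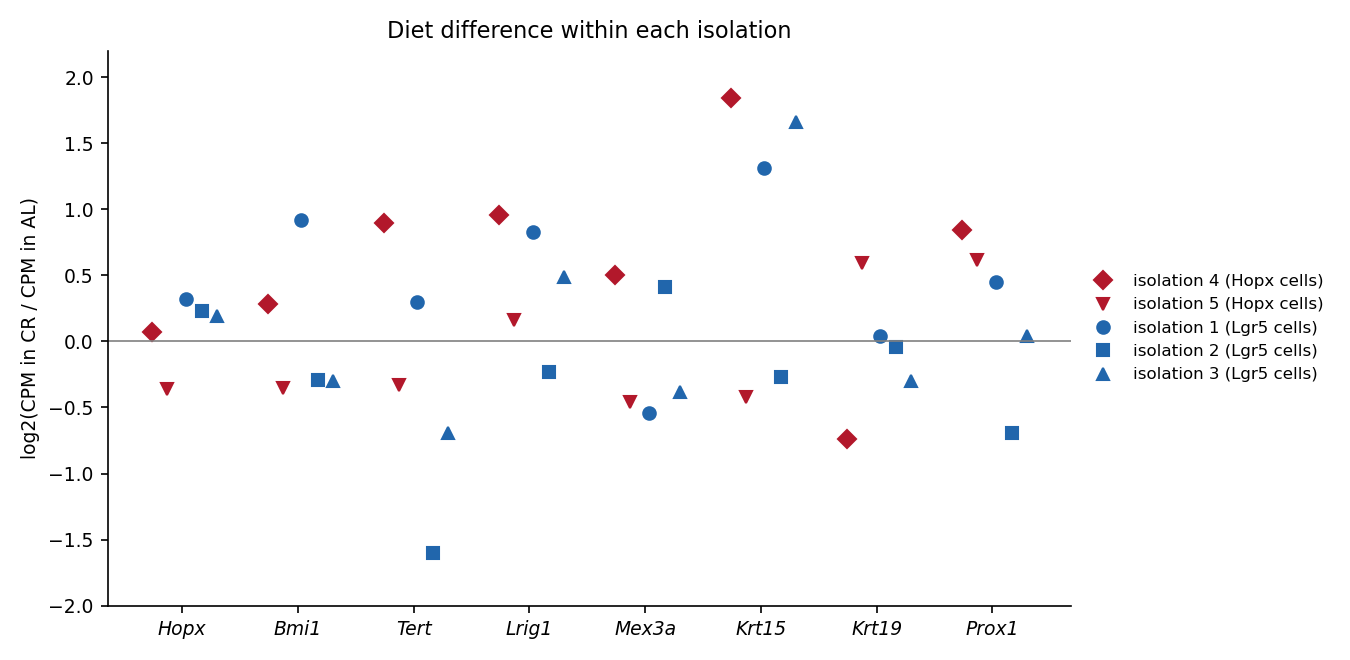
Log2 ratio of the CR to the AL animal in each of the 5 isolations, on the CPM scale, for Hopx cells (red) and Lgr5 cells (blue). Lrig1 is above 0 in 4 of 5 isolations (-0.23 to 0.96) and Hopx stays nearest to 0 (-0.36 to 0.32).

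Among the 8 genes, Tert, Lrig1 and Krt15 varied most across the libraries (SD of log2 CPM 0.592, 0.583 and 0.904), and the genes whose profiles lay nearest to theirs were sought among those with a mean of at least 5 CPM. The measure was the root mean square difference between centred log2 CPM profiles over the 10 libraries, which is a description of libraries that share depth and cell makeup. Lrig1 was followed most closely by Cachd1 (0.141), Acss1 (0.166) and Vav3 (0.192), where the Lrig1 profile itself had a root mean square of 0.553. Tert was followed by Dstyk (0.187), C2cd3 (0.248) and Cc2d2a (0.270), with 0.561 for Tert itself. Genes near to Krt15 were less close, among them Thbs1 (0.357) and Gemin4 (0.378), with 0.857 for Krt15.

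The sequence that the markers share with other genes bears on how exactly reads could be assigned. In GENCODE M21 mouse transcripts, 26.2% of the stretches of 31 bases in Hopx also occur in other genes, nearly all of them in Hopxos, a transcript that overlaps Hopx on the opposite strand. The libraries do not mark the strand, so a Hopx level can hold reads of Hopxos, whose own level was not analysed here. For Bmi1 the share was 28.2%, mostly from the pseudogene Gm5946, which was assigned 0 to 2.65 estimated counts per library. Lrig1 shared 2.03% with Slc25a26, an overlapping gene on the other strand with 139 to 538 estimated counts, and Prox1 shared 1.23% and overlaps Prox1os. Krt15 shared 3.74%, mostly with Krt17 and Krt25, although its nearest protein-coding neighbours in the GRCm38 RefSeq list are Krt13 and Krt19. The shares of Mex3a, Krt19 and Tert were 1.25%, 0.439% and 0.244%.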

How the data were processed

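RNA of sorted intestinal cells was measured in 10 libraries from 10 mice. Per the labels' protocols, cDNA came from a SMART-Seq v4 low-input kit and was tagmented with Nextera XT for Illumina sequencing. Neither kit has molecular identifiers or keeps the strand. The values used are the deposited estimated counts, which need not be whole, and the TPM (scaled by transcript length and library total) that the authors gave for the same gene symbols. Per the submitters' processing notes, kallisto and edgeR were used (no versions) with GRCh38, a human build, although the symbols are mouse symbols. The annotation is not given in the sources used here.

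Estimated counts were rounded to whole numbers, filtered with filterByExpr (minimum count 10) and scaled by TMM in edgeR 4.0.16 (R 4.3.3). The quasi-likelihood model had 4 group means over all 10 libraries, and for CR against AL over the isolations a model with isolation as a block. The isolation number in the labels pairs the animals, and same-isolation deviations from the group means correlated at 0.0195 to 0.165. The 2 Hopx isolations share 1 value (0.0252) by construction, because deviations in a group of 2 mirror each other. Benjamini-Hochberg adjustment of the two-sided p-values ran over all 15839 genes, with a threshold of 0.05. Intervals use the t distribution on each gene's degrees of freedom. P-values of the model with group means measure the spread between animals of a group. Those of the model with isolation as a block measure the spread of the CR to AL difference between isolations of both lines. Counting intervals are not given because amplified copies are not independent molecules. CPM are TMM-normalised, and TPM was used to compare genes. DESeq2 1.42.0, limma 3.58.1 on log2(TPM + 1) and log2(TPM + 0.1), another scaling (RLE size factors), no filter, the replicate block and each library left out were the alternatives. The fits were tested on simulated counts. The 8 genes and the gene lists were chosen with earlier results of these data known. All 8 genes were named whatever their values. From a list, the genes past the threshold were named (at most 4), and otherwise the 2 with the highest mean TPM, of which some are left out here. Likeness was computed for genes with an SD over 0.5 of log2 CPM, and 1 of its results is not reported here.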

Additional observations from a re-analysis of the deposited data

How the results depend on the processing

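Between Hopx and Lgr5 cells, 0 of the 8 markers passed with RLE size factors and without the filter, as in the edgeR fit given above, but 2 passed with DESeq2 (Hopx and Lrig1) and 4 with limma on TPM at either pseudocount (Hopx, Tert, Lrig1 and Krt15). On the TPM scale the median of all genes moved to -0.35 (pseudocount 1) and -0.47 (0.1). Relative to it Lrig1 was at -0.96 and -0.88, Hopx at -0.62 and -0.50, Krt15 at -0.89 and -1.36 and Tert at -0.36 and -0.77. The TPM calls over all genes split into 158 higher and 3192 lower at pseudocount 1, against 114 higher and 97 lower on counts. Leaving out 1 library at a time gave 0 or 1 marker and 22 to 293 genes in all. The count over all genes was 211 in the edgeR fit, 465 without the filter, 1394 with DESeq2, and 3350 and 3658 on TPM.

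In the diet comparisons no marker passed under any alternative run. The counts over all genes without the filter, with DESeq2 and on TPM were 7, 140, 4 and 4 in Hopx cells (2 as given above, 1 to 3 with a library left out), and 83, 365, 19 and 23 in Lgr5 cells (3 above, 0 to 109). They were 219, 1079, 85 and 167 over the isolations (47 above, 0 to 20), and 3, 35, 3 and 2 for the difference between the diet effects (1 above, 1 to 2). RLE size factors gave 1 in Lgr5 cells and 14 over the isolations. With isolation as a replicate block, 0 genes passed in Hopx cells, in Lgr5 cells and for the difference, and without the block 22 passed over the isolations. The block turned the uncalled estimates of Bmi1 in Hopx cells (-0.0317) and of Krt15 in the difference (-0.155), and changed no call of a marker.

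Signs that turned were of estimates that never passed. On TPM, at pseudocounts 1 and 0.1, Bmi1 was at -0.329 and -0.347 and Krt19 at -0.223 in both between the sorts. Under the diet, Hopx was at 0.139 and 0.140 and Krt19 at 0.212 in both in Hopx cells, Bmi1 was at -0.0963 and -0.0969 in Lgr5 cells, and the differences of Hopx and Bmi1 were 0.0977 and 0.0986, and 0.334 and 0.349. With a library left out, Bmi1 ran from -0.0424 to 0.355 between the sorts. In Hopx cells the CR estimates ran from -0.401 to 0.11 (Hopx), -0.431 to 0.364 (Bmi1), -0.276 to 0.857 (Tert), -0.239 to 0.277 (Mex3a), -0.534 to 1.95 (Krt15) and -0.516 to 0.332 (Krt19). In Lgr5 cells they ran from -0.12 to 0.389 (Bmi1), -0.341 to 0.128 (Mex3a), -0.197 to 0.0761 (Krt19) and -0.39 to 0.166 (Prox1). Over the isolations they ran from -0.177 to 0.153 (Bmi1), -0.59 to 0.0441 (Tert), -0.26 to 0.0179 (Mex3a) and -0.251 to 0.0787 (Krt19). The difference between the diet effects ran from -0.527 to 0.269 (Bmi1), -0.146 to 0.556 (Lrig1), -0.112 to 0.404 (Mex3a), -1.32 to 1.16 (Krt15) and -0.441 to 0.407 (Krt19). The cause was not tested. Of 552 alternative estimates of the markers, 16 turned sign and 10 newly passed under other settings, and 44 and 1 with a library left out. The others (206 and 275) kept their direction and their side of the threshold. Counts were lowest for Mex3a, Tert and Krt15, and the part of low counts in these results was not tested.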
